A study of Mus musculus with 6 samples.

Results

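Serum of nerve graft recipients was compared at day 7 after surgery between 1 library from mice given FK506 and 1 library from mice given none. These are 2 of the 6 libraries of the study, chosen by their labelled treatment and day. Every mature miRNA entry with at least 50 reads in 1 of the 2 libraries was described, and of the 1281 entries 78 passed in both, 8 in FK506 alone and 43 in untreated serum alone. Both groups were male mice aged 10 to 12 weeks that had received a sciatic nerve graft of 1 cm from a Balb/c donor in a gap of 0.5 cm. The FK506 group received the drug under the skin at 1 mg/kg per day over the whole course, and the untreated group had the same operation without the drug. The strain tag of both libraries is C57BL/6, but the description of the surgery calls the recipients Balb/c, so the strain mismatch is given here only as far as the labels state it. Each group and day had 3 animals per the design text, which does not say how their RNA was divided among libraries. Blood was drawn into tubes with anticoagulant and the white cell layer was taken off, and the samples are called serum as labelled. Serum of unoperated mice was not analysed here.

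A miRNA guides Argonaute proteins to messenger RNAs that pair with its seed, bases 2 to 8 from its 5′ end, and lowers the output of those messages. Serum miRNAs travel in vesicles, on lipoproteins or bound to Argonaute, and come mostly from blood cells, with additions from other tissues whose cells release or lose their contents. FK506 (tacrolimus) binds the immunophilin FKBP12, and the complex blocks the phosphatase calcineurin, which T cells need to switch on cytokine genes after antigen contact.

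The FK506 library held 5068245 counts and the untreated library 4897727. Most reads of both libraries belonged to the red cell miRNA miR-486-5p and its overlapping copy, miR-3107-5p. Outside this pair lay 103058 reads in FK506, or 2.03% of the total (exact 95% binomial interval 2.02 to 2.05), and 298117 reads in untreated serum, or 6.09% (6.07 to 6.11). At days 3 and 14 this share was 2.09% and 6.18% in FK506 and 3.12% and 2.96% in untreated serum. The FK506 day 14 library was thus as high as the untreated day 7 library. With 1 library per group there is no replicate check, no test was made and no p-value is given, and all intervals cover counting error only. Reads carry no molecular identifiers, so duplicate reads could not be removed and the intervals may be too narrow even for counting error. A miRNA was called higher or lower at a log2 ratio of FK506 over untreated of at least 1 or at most -1, after TMM scaling of the counts with a prior count of 2. Whether a difference in serum reflects more cells releasing a miRNA or more released per cell cannot be told apart.

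The untreated day 7 library stood apart from the other 5. Its TMM-scaled level was the highest of the 6 libraries for 63 of the measured miRNAs (48.8%) and the lowest for 25 (19.4%). On the scale of shares outside the pair it was the highest for 50 (38.8%) and the lowest for 51 (39.5%), so the balance of the 2 depended on the scaling. With TMM, the FK506 day 7 level was the highest of 6 for 12 miRNAs (9.3%) and lay within the range of the 4 libraries of days 3 and 14 for 89 (69.0%). The ratio of miR-451a, a red cell miRNA, to miR-23a-3p, used as a sign of red cell lysis, was 13.7 in FK506 and 43.6 in untreated serum at day 7, where miR-23a-3p had 12 reads. The part of lysis in the results below was not tested.

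The sequences of the miRNAs that carried the widest differences are given first, with the seed in capitals, from RefSeq on GRCm38.p6, which named most of the measured entries. The 3 entries of the nervous system that follow were among the lowest in FK506 relative to untreated serum.
miR-9-5p: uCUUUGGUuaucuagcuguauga
miR-338-3p: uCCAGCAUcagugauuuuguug
miR-204-5p: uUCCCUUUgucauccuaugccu

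The let-7 members share 1 seed and differ from let-7a-5p by 1 to 4 bases outside it, so they show how far near-identical sequences diverged between the libraries. Counting from 1 at the 5′ end of let-7a-5p, let-7e-5p differs by U9G, let-7f-5p by G12A, let-7c-5p by A19G, and miR-98-5p by G11A and A19U.
let-7a-5p: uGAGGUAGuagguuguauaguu
let-7e-5p: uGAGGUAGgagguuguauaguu
let-7f-5p: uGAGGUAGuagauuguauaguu
let-7c-5p: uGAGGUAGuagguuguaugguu
miR-98-5p: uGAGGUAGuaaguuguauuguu

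The miR-181 seed took the most reads outside the pair in untreated serum, and its members miR-181a-5p and miR-181b-5p differ at 3 positions. miR-26a-5p and miR-27b-3p were also among the 10 most abundant untreated entries.
miR-181a-5p: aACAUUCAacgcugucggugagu
miR-181b-5p: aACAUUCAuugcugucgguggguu
miR-26a-5p: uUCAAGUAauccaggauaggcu
miR-27b-3p: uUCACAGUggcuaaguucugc

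On the side higher in FK506, miR-10a-5p and miR-10b-5p differ by U12A and share a seed. miR-215-5p shares its seed with miR-192-5p, miR-23a-3p had a large ratio on few reads, and miR-92a-3p and miR-92b-3p share a seed but had log2 ratios of opposite sign.
miR-10a-5p: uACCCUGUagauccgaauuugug
miR-10b-5p: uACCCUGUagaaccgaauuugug
miR-215-5p: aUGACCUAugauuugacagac
miR-192-5p: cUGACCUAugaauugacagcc
miR-23a-3p: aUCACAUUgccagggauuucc
miR-92a-3p: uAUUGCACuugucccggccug
miR-92b-3p: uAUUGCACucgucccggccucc

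FK506 serum had less of most measured entries on the neuron, glia, Dlk1-Dio3 and miR-181 lists and of part of the let-7 family. It had more of miR-150-5p of the lymphocyte list, miR-133a-3p of the muscle list and both miR-10 members. Other entries of the lymphocyte and muscle lists did not all follow, and the tissue of origin was not measured. After TMM scaling 25 of the measured miRNAs were higher (19.4%) and 60 lower (46.5%), with a median log2 ratio of -0.74. As shares of the reads outside miR-486-5p and miR-3107-5p, 45 were higher (34.9%) and 46 lower (35.7%), with a median of 0.33. The 45 include miR-486-5p and miR-3107-5p themselves, which hold none of those reads. Their values of 1.64 are therefore ratios to those reads and not shares. Counts and percentages over all measured miRNAs on this scale keep the pair in. Scaled to the library total, 9 were higher (6.98%) and 73 lower (56.6%). The scaling therefore set how many miRNAs counted as higher, because it moved the median by 1.07 for the shares outside the pair, by -0.51 for the library total and by 0.20 for TMM with no filter on low counts. Under all 7 scalings the same 9 miRNAs were higher and the same 46 lower.

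**Figure D1:**
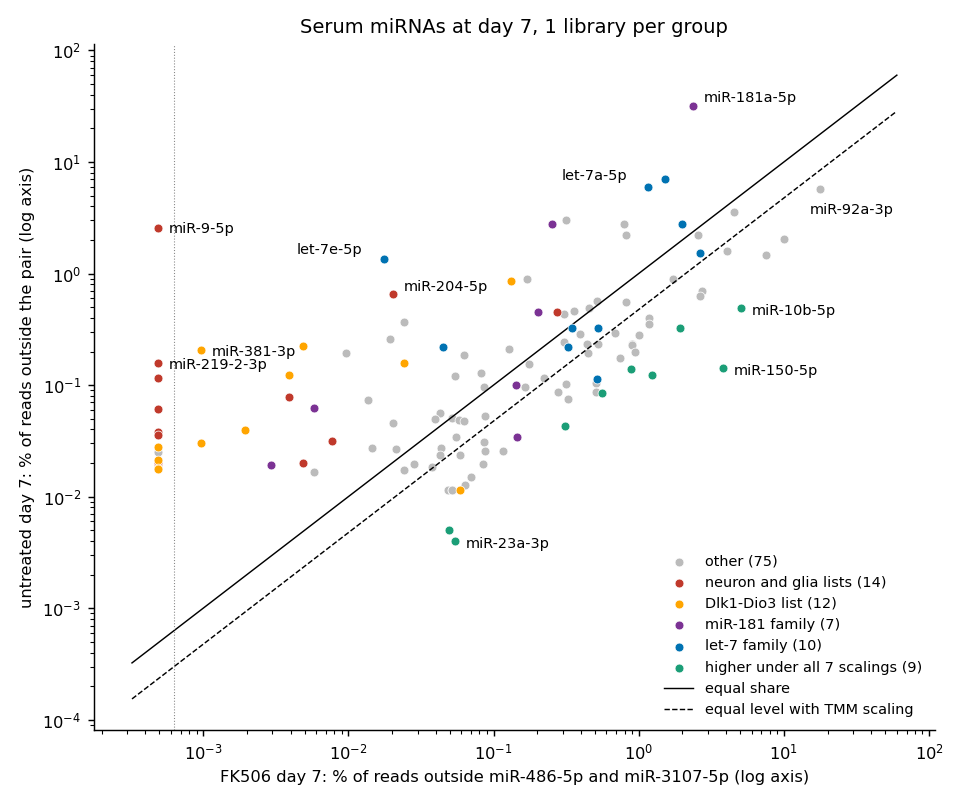
Share of the reads outside miR-486-5p and miR-3107-5p for the other measured miRNAs, FK506 day 7 on the horizontal and untreated day 7 on the vertical axis, both logarithmic, with 1 library each. Points left of the dotted line had 0 reads in FK506 and are drawn at 0.5 reads; miR-9-5p lies there at 2.58% of the untreated reads, while miR-150-5p lies far below both lines.

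The larger number of reads outside the pair in untreated serum came mostly from 2 families. The untreated library had 195059 more reads outside the pair than the FK506 library, and the miR-181 and let-7 families together made up 77.8% of that difference. The entry miR-181a-5p, which tunes T cell receptor signalling and is also abundant in brain, made up 47.3% by itself, with 2421 reads in FK506 and 94740 in untreated serum. It was 2.35% of the reads outside the pair in FK506 and 31.8% in untreated serum (interval 31.6 to 31.9), and was the first entry there against rank 12 in FK506. Neuron, glia and Dlk1-Dio3 members together added 9.07% of the difference. They held the 4 lowest single log2 ratios, from miR-9-5p at -12.06 to miR-381-3p at -7.59, ahead of let-7e-5p at -7.23.

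The leading entries outside the pair were not the same in the 2 libraries. In FK506 the first 3 were miR-92a-3p of the miR-17-92 cluster with 17.8% (17.5 to 18.0), miR-25-3p with 10.0% and miR-191-5p with 7.50%, which are abundant in red cells and platelets. In untreated serum these 3 held 5.71%, 2.03% and 1.47%, at ranks 4, 13 and 16. miR-92a-3p had 18312 reads in FK506 and 17035 in untreated serum, at a log2 ratio of 0.56 by TMM, below the size of a call, and of 1.64 as a share outside the pair. miR-25-3p had 10353 reads in FK506 and 6038 in untreated serum, and miR-191-5p 7727 reads in FK506 and 4383 in untreated serum. Both were higher by TMM, at 1.24 and 1.28.

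Neuronal miRNAs were almost absent from FK506 serum and present in untreated serum. The 42 entries of the neuron list, which was drawn up with earlier results of these data known, summed to 302 reads in FK506 and 10105 in untreated serum, 24.3-fold lower after scaling (interval 21.7 to 27.4). In CPM (counts scaled to a common TMM effective library size), the sum was 46.3, 80.4 and 40.2 in the FK506 libraries of days 3, 7 and 14, and 21.1, 1955 and 30.8 in the untreated ones, so that only the untreated day 7 library was high. Of 11 measured members all 11 were lower, beside 46.5% of all miRNAs, but 10 of them reached 50 reads in the untreated library alone, so that their entry into the count rested on the group where they were high. The 31 unmeasured members comprised 23 without a read in either library, 8 with more reads in untreated serum and 0 with more in FK506.

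The neuronal miRNAs differed among themselves in how clean this pattern was. miR-9-5p, a regulator of neural progenitors, had 0 reads in FK506 and 7683 in untreated serum, at least 1862-fold lower against a floor of 3 reads (at least 885-fold as a share outside the pair). Its 3 genes lie on chromosome 3 at 88215598 to 88215686 in an intron of the long noncoding RNA gene Gm3764, on chromosome 13 at 83738814 to 83738885 in an exon of C130071C03Rik, and on chromosome 7 at 79505264 to 79505353 in an intron of Mir9-3hg (GRCm38). Its opposite arm miR-9-3p had 0 reads in FK506 and 37 in untreated serum. The list member with at least 50 reads in both day 7 libraries was miR-128-3p, a brain-enriched miRNA also made in blood progenitors. It had 282 reads in FK506 and 1348 in untreated serum at day 7, and was 3.47-fold lower in FK506 (3.05 to 3.96), but FK506 day 7 was above the untreated libraries of days 3 and 14, with log2 ratios of 2.07 and 1.601. As a share outside the pair its day 7 log2 ratio was -0.72, short of a call.

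Glial miRNAs followed the neuronal ones. The 9 entries of the glia list summed to 29 reads in FK506 and 2810 in untreated serum, 70.4-fold lower (48.9 to 105). miR-219-2-3p had 0 reads in FK506 and 467 in untreated serum, at least 113-fold lower, and the entry miR-219-5p had 0 reads in FK506 and 5 in untreated serum. miR-338-3p, which promotes oligodendrocyte differentiation, had 0 reads in FK506 and 347 in untreated serum, at least 84.1-fold lower. miR-204-5p, known from choroid plexus, retinal pigment epithelium and Schwann cells, had 21 reads in FK506 and 1939 in untreated serum, 67.1-fold lower (43.8 to 109), and its gene lies in an intron of Trpm3 on chromosome 19 at 22750605 to 22750672. All 3 measured members were lower (46.5% of all miRNAs were), each through the untreated library only. In TMM-scaled CPM the glia list summed to 6.90, 7.72 and 8.69 in FK506 at days 3, 7 and 14. In untreated serum it summed to 8.09, 543.7 and 4.50 at the same days. Only the untreated day 7 library was high, and FK506 day 7 lay between untreated days 3 and 14. The myelin and Schwann cell miRNAs thus stood on the same side as the neuronal ones at day 7, because of that untreated library.

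The Dlk1-Dio3 locus on chromosome 12 is an imprinted region whose maternally expressed miRNAs are abundant in brain and embryo. The entries of this locus summed to 272 reads in FK506 and 5373 in untreated serum, 14.4-fold lower (12.7 to 16.3). In TMM-scaled CPM the sum was 74.5, 72.4 and 78.1 in the FK506 libraries of days 3, 7 and 14, and 80.7, 1040 and 43.2 in the untreated ones. Only the untreated day 7 library was high, and FK506 day 7 lay above untreated day 14. Of 12 measured members 11 were lower and 1 higher, beside 46.5% and 19.4% of all miRNAs, and 10 of the 12 reached 50 reads in the untreated library alone. Among its unmeasured members 17 had more reads in untreated serum, 6 had more in FK506 and 66 had 0 in both. miR-381-3p had 1 read in FK506 and 611 in untreated serum, 444-fold lower, with bounds of 79.4 and 17571 from counting error. miR-127-3p, encoded antisense to an exon of Rtl1 at 109592846 to 109592915, was 0.132% of the reads outside the pair in FK506 and 0.861% in untreated serum, and was 13.7-fold lower (11.5 to 16.4). Against this, miR-434-3p of the same locus had 61 reads in FK506 and 34 in untreated serum, 2.47-fold higher (1.597 to 3.87), although its gene lies in 1 cluster with those of miR-127, miR-136 and miR-431, whose measured miRNAs were all lower. Neighbouring genes of 1 imprinted cluster therefore did not share a direction.

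The miR-181 family, which acts in T and B cell development and is also brain-expressed, summed to 3196 reads in FK506 and 105058 in untreated serum, 23.9-fold lower (23.1 to 24.8). Its summed level was 865, 851 and 822 TMM-scaled CPM in the FK506 libraries of days 3, 7 and 14, and 1761, 20327 and 1517 in the untreated ones. The FK506 libraries were alike and below each untreated library, and the untreated day 7 library was high again. Of 7 measured members 5 were lower and 1 higher, beside 46.5% and 19.4% of all miRNAs, with the same numbers as shares outside the pair. miR-181a-5p was 28.4-fold lower (27.3 to 29.6) and miR-181b-5p 23.3-fold lower (20.6 to 26.4), while miR-181d-5p of the same seed, with 147 reads in FK506 and 301 in untreated serum, was at a log2 ratio of -0.57. The passenger strand miR-181a-1-3p was 22.7-fold lower (10.2 to 62.5), with 6 reads in FK506 and 187 in untreated serum. The passenger strand of the second gene, miR-181a-2-3p, had 150 reads in FK506 and 102 in untreated serum, 2.02-fold higher (1.56 to 2.63). The genes lie on chromosome 1 at 137966455 to 137966541, in the long noncoding RNA gene A430106G13Rik, and on chromosome 2 at 38852735 to 38852810, antisense to an intron of Nr6a1, and the strands that tell them apart went opposite ways.

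**Figure D2:**
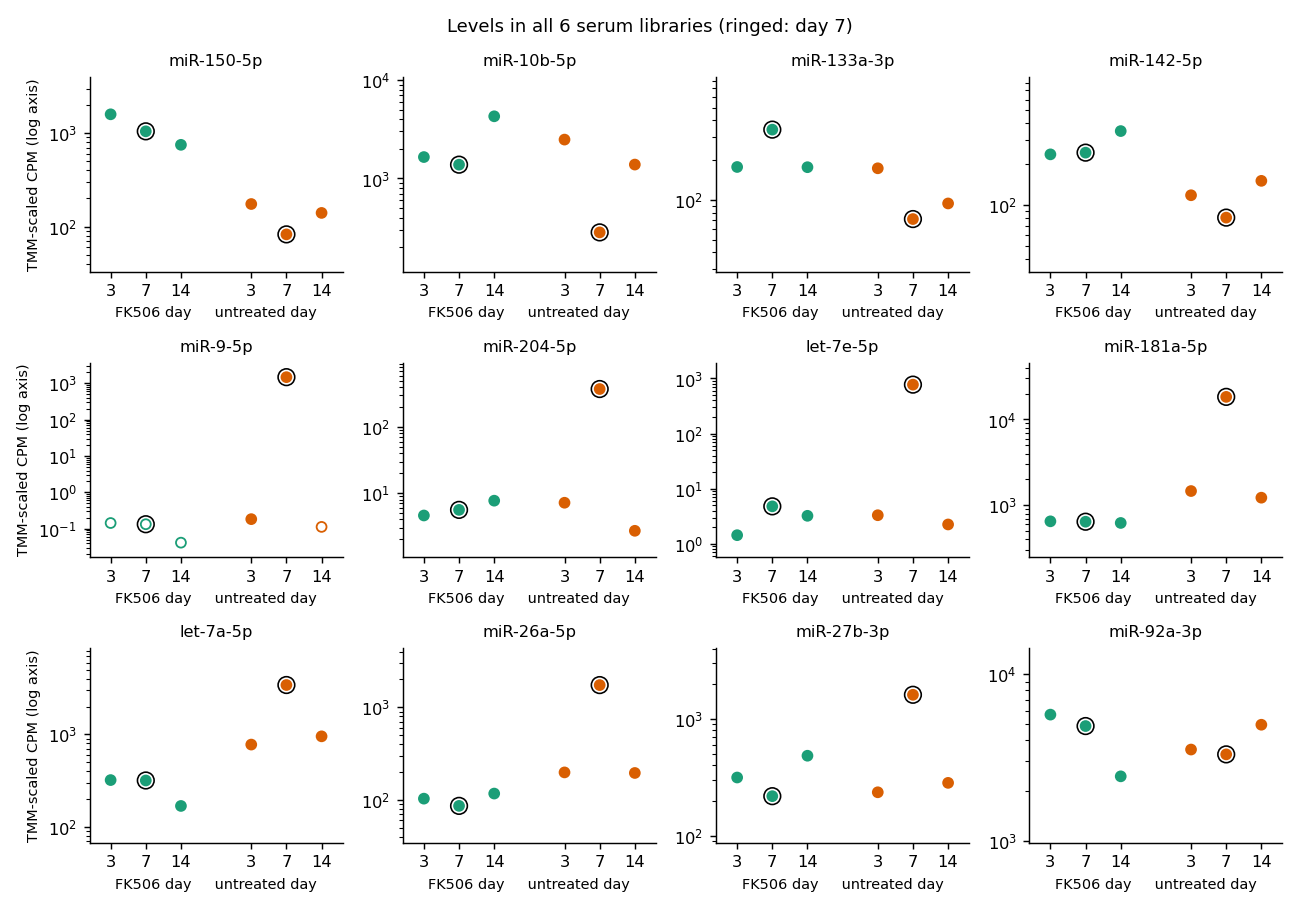
TMM-scaled CPM of 12 miRNAs in all 6 libraries, on log axes, FK506 in green and untreated in orange, each at days 3, 7 and 14 with day 7 ringed. Open points had 0 reads and are drawn at 0.5 reads; for miR-9-5p, miR-204-5p, let-7e-5p, miR-181a-5p, miR-26a-5p and miR-27b-3p the untreated day 7 library lies far above the other 5, while miR-150-5p is high in all 3 FK506 libraries.

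The let-7 family, which restrains proliferation and is abundant in differentiated cells, was split. Its 23 entries summed to 9353 reads in FK506 and 59208 in untreated serum, 4.60-fold lower (4.50 to 4.70). Of 10 measured members 5 were lower and 1, the passenger strand let-7d-3p, was higher, so that the share of lower members was close to the 46.5% of all miRNAs. As shares outside the pair 4 were lower, since let-7i-5p was at -0.49. let-7e-5p was 161-fold lower (102 to 272), with 18 reads in FK506 and 3993 in untreated serum, let-7a-5p 10.8-fold lower (10.2 to 11.5), with 1192 reads in FK506 and 17735 in untreated serum, and let-7f-5p 9.79-fold lower (9.30 to 10.3), with 1564 reads in FK506 and 21056 in untreated serum. miR-98-5p was 10.3-fold lower (7.64 to 14.2) and let-7i-5p 2.96-fold lower (2.82 to 3.11), so the ratios of the 5 lower members were wide apart. In contrast let-7c-5p had 2733 reads in FK506 and 4542 in untreated serum, at a log2 ratio of -0.27, and let-7g-5p was at -0.38, let-7d-5p at -0.49 and let-7b-5p at -0.98. As shares outside the pair these last 4 had positive log2 ratios, of 0.80, 0.69, 0.57 and 0.09. The labels do not say how reads matching several of these near-identical members were counted.

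Within the let-7 seed family the make-up can be read without any scaling. let-7c-5p was 31.0% of the reads of the 9 members in FK506 (30.0 to 32.0) and 7.72% in untreated serum (7.50 to 7.94) at day 7. let-7a-5p was 13.5% in FK506 (12.8 to 14.2) and 30.1% in untreated serum (29.8 to 30.5), and let-7e-5p 0.204% in FK506 and 6.78% in untreated serum. let-7g-5p was 7.03%, 6.09% and 7.41% in the FK506 libraries of days 3, 7 and 14, and 2.49%, 1.64% and 2.73% in the untreated ones, so that the groups did not overlap. The shares of let-7a-5p, let-7b-5p, let-7c-5p and let-7f-5p did not overlap either. Among the 49 entries of all seed families compared, these included, 18 (36.7%) were separated in this way. Shares within a family are not independent of each other, since they add up to the whole. The let-7e-5p share stood out in the untreated day 7 library alone, as it was at most 0.204% in each of the other 5.

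**Figure D3:**
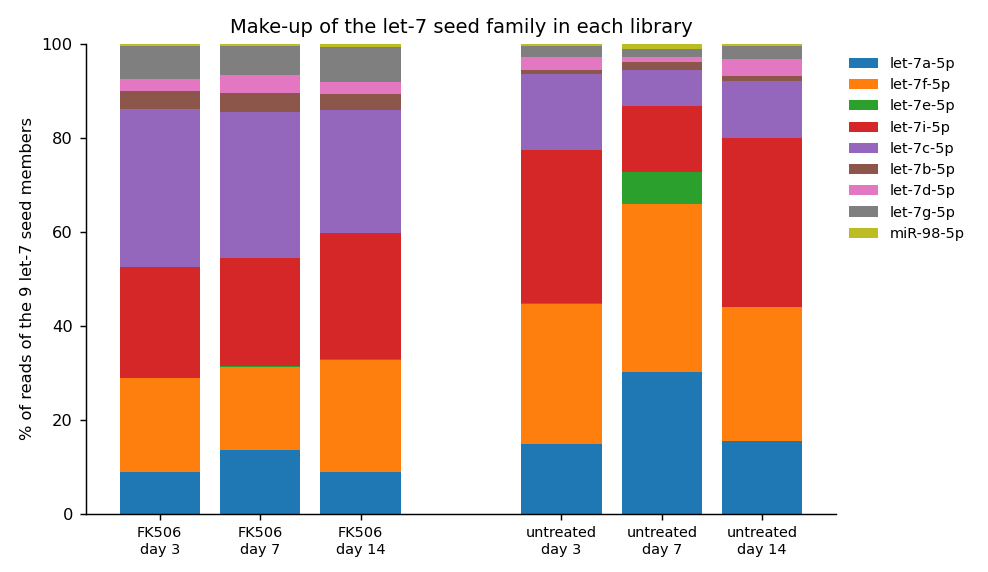
Share of each of 9 members in the summed reads of the let-7 seed family, stacked to 100%, in the FK506 and then the untreated libraries at days 3, 7 and 14. The let-7c-5p band is wider in each FK506 library than in each untreated one (31.0% and 7.72% at day 7), and let-7e-5p forms a visible band of 6.78% in untreated day 7 serum.

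The lymphocyte miRNA miR-150-5p, abundant in mature B and T cells, was the entry most enriched in FK506 serum. It had 5531, 3926 and 9054 reads in the FK506 libraries of days 3, 7 and 14, and 948, 426 and 622 in the untreated ones. At day 7 it was 12.7-fold higher (11.5 to 14.0), and 26.7-fold higher as a share outside the pair (24.1 to 29.5), where it was 3.81% in FK506 and 0.143% in untreated serum. It stayed above both other untreated libraries, with log2 ratios of FK506 day 7 over untreated days 3 and 14 of 2.58 and 2.90. Of the other entries of the lymphocyte list, miR-342-3p had 53 reads in FK506 and 150 in untreated serum, at a log2 ratio of -1.02 (0.03 as a share outside the pair), and miR-342-5p had 7 reads in FK506 and 45 in untreated serum. miR-155-5p, induced in activated lymphocytes, had 2 reads in FK506 and 5 in untreated serum, and the opposite arm miR-150-3p had 5 reads in FK506 and 6 in untreated serum.

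Other miRNAs higher in FK506 under all 7 scalings were miR-23a-3p, miR-10b-5p, miR-133a-3p, miR-1964-3p, miR-1198-5p, miR-215-5p, miR-142-5p and miR-10a-5p. miR-10b-5p, encoded in the HoxD cluster in introns of Hoxd3 and Hoxd4 on chromosome 2 at 74726070 to 74726137, had 5739, 5186 and 51721 reads in the FK506 libraries of days 3, 7 and 14, and 13506, 1463 and 6153 in the untreated ones. At day 7 it was 4.88-fold higher (4.60 to 5.17), but against the untreated libraries of days 3 and 14 its log2 ratios were -0.85 and -0.0036, so that the untreated day 7 library was the low one. miR-10a-5p, from chromosome 11 at 96317165 to 96317274, was 2.86-fold higher at day 7 (2.65 to 3.09) and at -1.02 and 0.34 against untreated days 3 and 14. The muscle miRNA miR-133a-3p had 1281 reads in FK506 and 370 in untreated serum and was 4.76-fold higher (4.24 to 5.36), and was at 0.97 and 1.85 against the other untreated libraries. Its FK506 day 7 level was the highest of the 6 libraries, whereas the myogenic miR-1a-3p had 2 reads in FK506 and 0 in untreated serum, and miR-206-3p 1 read in FK506 and 0 in untreated serum. Another entry of the muscle list, miR-133b-3p, went the other way, with 2 reads in FK506 and 12 in untreated serum.

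The blood cell miRNA miR-142-5p had 914 reads in FK506 and 417 in untreated serum, 3.02-fold higher in FK506 (2.68 to 3.39), while its partner arm miR-142-3p had 14 reads in FK506 and 17 in untreated serum. The myeloid miR-223-3p had 15 reads in FK506 and 9 in untreated serum. miR-215-5p, which p53 induces and intestine expresses, had 578 reads in FK506 and 251 in untreated serum, 3.17-fold higher (2.73 to 3.69). miR-23a-3p had 56 reads in FK506 and 12 in untreated serum and was 6.42-fold higher (3.40 to 13.2). The less studied miR-1964-3p, from an intron of Zfp84, had 51 reads in FK506 and 15 in untreated serum and was 4.68-fold higher (2.59 to 8.96). miR-1198-5p, from an intron of Gripap1 on the X chromosome, was 0.31% of the reads outside the pair in FK506 and 0.0426% in untreated serum, and was 3.46-fold higher (2.80 to 4.28). The untreated day 7 level was the lowest of the 6 libraries for 15 of the 25 miRNAs higher in FK506, against 19.4% of all measured miRNAs, and the FK506 day 7 level was the highest for 10 of the 25, against 9.3%. On the scale of shares outside the pair the untreated day 7 level was the lowest for 41 of the 45 higher ones, against 39.5% of all. These counts are no independent check, since a call as higher already requires untreated day 7 to lie below FK506 day 7.

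The 5p and 3p arms of 1 precursor are cut from the same hairpin, so their ratio does not depend on scaling. Of 60 precursors with at least 50 reads over both arms in each day 7 library, 8 (13.3%) had 5p shares whose 95% intervals were separate, and 3 of these differed by at least 10 percentage points. For miR-151, encoded in an intron of a focal adhesion kinase gene in mammals, the 5p arm held 1.06% of the reads in FK506 (0.51 to 1.94), with 10 of its reads against 934 of miR-151-3p. In untreated serum it held 46.0% (43.2 to 48.8), with 576 reads against 676. At days 3 and 14 the miR-151-5p share was 2.22% and 4.88% in FK506 and 5.40% and 4.65% in untreated serum. The 5p and 3p arms of miR-151 thus had log2 ratios of opposite sign at day 7, -5.21 and 0.92, and the untreated day 7 library stood alone.

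For let-7d the arm shares separated the treatments at each day. The let-7d-5p share was 56.7%, 38.8% (35.6 to 42.2) and 44.7% in the FK506 libraries of days 3, 7 and 14, and 74.8%, 66.1% (63.0 to 69.01) and 79.1% in the untreated ones. All 3 FK506 libraries thus lay below all 3 untreated ones. Among 57 precursors with at least 50 reads over both arms in each of the 6 libraries, 5 (8.77%) had FK506 and untreated shares that did not overlap, namely let-7d, let-7i, miR-486, miR-140 and miR-30e. In let-7i, miR-486 and miR-140 the shares differed by less than 1 percentage point at day 7. For miR-30e the 5p share was 95.6% in FK506 (93.4 to 97.3) and 81.0% in untreated serum (77.9 to 83.8), while at days 3 and 14 it was 95.9% and 97.6% in FK506 and 91.2% and 94.6% in untreated serum. For miR-423 it was 86.9% in FK506 (85.9 to 87.7) and 92.4% in untreated serum (91.9 to 92.9).

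**Figure D4:**
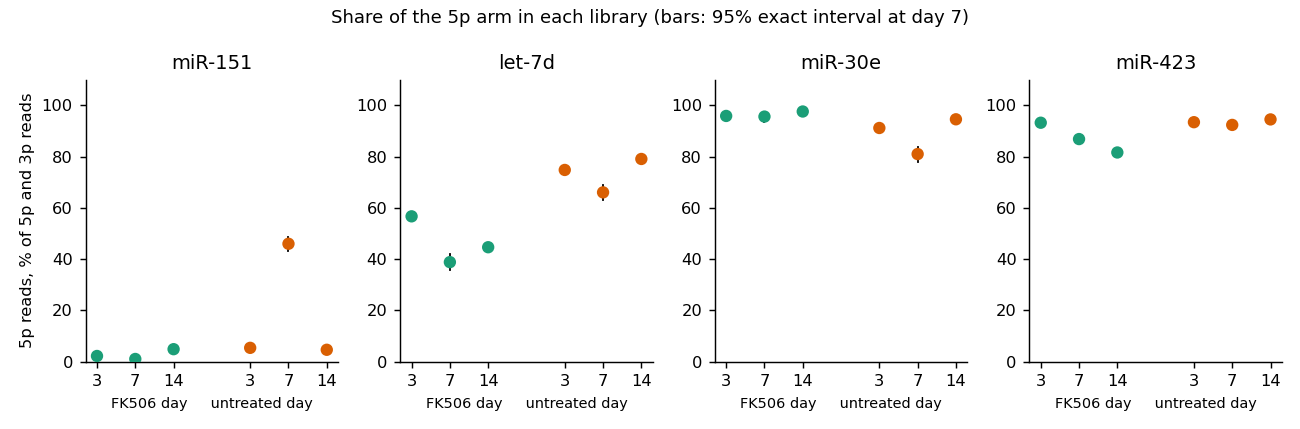
Reads of the 5p arm as a percentage of 5p and 3p reads for miR-151, let-7d, miR-30e and miR-423, FK506 in green and untreated in orange at days 3, 7 and 14, with bars for the exact 95% interval at day 7. The miR-151-5p share is 46.0% in untreated day 7 serum and at most 5.40% elsewhere, and let-7d-5p is lower in each FK506 library than in each untreated one.

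Members of 1 seed family target largely the same messages, and in 1 of the families below a member was higher and another lower at day 7. The matched entries held 17 seeds with at least 2 members, 49 entries in all, and for 39 of these (79.6%) the share of the family had separate 95% intervals at day 7. miR-92b-3p was 0.603% of its seed family in FK506 (0.517 to 0.700) and 10.3% in untreated serum (9.94 to 10.7), and at most 0.563% in each of the libraries of days 3 and 14. With 174 reads in FK506 and 2651 in untreated serum it was 11.1-fold lower in FK506 (9.50 to 13.0), while miR-25-3p of the same seed was 2.36-fold higher (2.28 to 2.44). miR-222-3p was 31.5% of its pair with miR-221-3p in FK506 (27.1 to 36.2) and 71.1% in untreated serum (68.0 to 74.1), although their genes are neighbours on the X chromosome between 19146294 and 19146971. That share was 36.6% and 33.2% in FK506 and 46.8% and 34.1% in untreated serum at days 3 and 14, so the untreated day 7 library was again the outlying one.

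For a further set of families the make-up separated FK506 from untreated serum at every day. Of the 49 entries, 18 (36.7%), from 8 of the 17 families, had shares in the 3 FK506 libraries that all lay above or all below those in the 3 untreated libraries, where the shares of 1 family are not independent of each other. miR-215-5p was 58.3%, 40.8% and 45.7% of its pair with miR-192-5p, a liver and gut miRNA, in the FK506 libraries of days 3, 7 and 14, and 36.2%, 13.1% and 12.9% in the untreated ones. miR-146a-5p, which restrains innate immune signalling, was 58.8%, 61.4% and 52.5% of its pair with miR-146b-5p in FK506 and 36.8%, 20.4% and 40.4% in untreated serum. miR-107-3p was 45.0%, 46.3% and 43.8% of its pair with miR-103-3p in FK506 and 20.5%, 28.9% and 35.8% in untreated serum. The other families were those of let-7, miR-181, miR-26, miR-30 and miR-125. That of miR-30 held miR-30a-5p, miR-30c-5p and miR-30e-5p only. miR-30d-5p, with 1787 reads in FK506 and 2691 in untreated serum at day 7, matched no sequence and was left out. Shares with miR-30d-5p included were not computed and may overlap. In 2 of these families the groups came close to each other. miR-125a-5p was 70.6% of its family in FK506 day 14 and 70.2% in untreated day 7, and its day 7 intervals overlapped. miR-26a-5p was 84.2% of its pair with miR-26b-5p in FK506 day 14 and 84.7% in untreated day 3. Reads assigned to the wrong member of a family would enter the shares of both members.

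The counts of the remaining lists stand beside 46.5% lower and 19.4% higher of all miRNAs by TMM, and 35.7% lower and 34.9% higher as shares outside the pair. The miR-26, miR-29 and miR-101 families had 3 of 4 measured members lower (2 of 4 as shares outside the pair), led by miR-101a-3p (31.7-fold, 21.3 to 49.1) and miR-26a-5p (20.2-fold, 18.1 to 22.7); miR-26a-5p was 0.313% of the reads outside the pair in FK506 and 3.01% in untreated serum. The list of miR-10, miR-99 and miR-125 had 2 higher, the miR-10 members, and 4 lower of 7 (2 lower as shares outside the pair), with miR-100-5p 11.5-fold (6.70 to 21.3) and miR-125b-5p 6.17-fold lower (4.77 to 8.11). The miR-30 family had 0 higher and 3 lower of 7 (1 higher and 2 lower as shares outside the pair) and a median log2 ratio of -0.87, from -1.37 to 0.21 over the scalings. The miR-23, miR-27 and miR-24 list had 1 higher, miR-23a-3p, and 1 lower of 2, miR-27b-3p, 7.37-fold (6.86 to 7.93) with 821 reads in FK506 and 8323 in untreated serum. The vascular and mesenchymal list had 2 higher and 1 lower of 4, the lower one being the smooth muscle miRNA miR-143-3p (5.70-fold, 5.31 to 6.14). Its higher members miR-199a-3p and miR-199b-3p have 1 sequence and 1 set of counts.

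In the blood cell and reference lists the counts depended on the scaling. The erythroid list had 2 of 6 higher, miR-451a at 1.01 and miR-486-3p at 1.00, and 5 higher as shares outside the pair. Those 5 include miR-486-5p and miR-3107-5p themselves, which hold none of the reads outside the pair. The list median of 0.57 ran from 0.06 to 1.64 over the scalings and followed the values of this pair, 0.57 by TMM and 1.64 on the outside-pair scale. The miR-17-92 and miR-106b-25 clusters had 2 higher and 1 lower of 5 by TMM and 4 higher and 0 lower as shares outside the pair, with a TMM median of 0.78 (0.27 to 1.85 over the scalings). The serum reference list had 3 higher and 1 lower of 6 by TMM and 4 higher and 0 lower as shares outside the pair, with a TMM median of 0.62 (0.12 to 1.68). In the reference list miR-191-5p was 2.43-fold higher (2.34 to 2.52) and miR-320-3p 2.27-fold lower (2.04 to 2.52), so these entries did not hold a constant ratio to each other. The inflammation feedback list had 0 higher and 1 lower of 3 (1 and 1 as shares outside the pair), the lower one being miR-146b-5p (4.65-fold, 3.50 to 6.27), and miR-21a-5p at -0.62 (0.45 as a share outside the pair). The nerve injury list had 0 higher and 1 lower of 3, miR-222-3p (2 higher and 0 lower as shares outside the pair), the liver and gut list 1 of 3 higher, miR-215-5p, and the epithelial list 1 of 2 higher, miR-205-5p (both as shares outside the pair). The group of miR-15, miR-16, miR-103 and miR-107 had 0 higher and 1 lower of 5 (1 higher and 0 lower as shares outside the pair), and in the miR-378 family the 1 measured member, miR-378a-3p, was at 0.87 (1.94 as a share outside the pair). The hepatocyte miRNA miR-122-5p was below the floor, with 26 reads in FK506 and 0 in untreated serum.

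**Figure D5:**
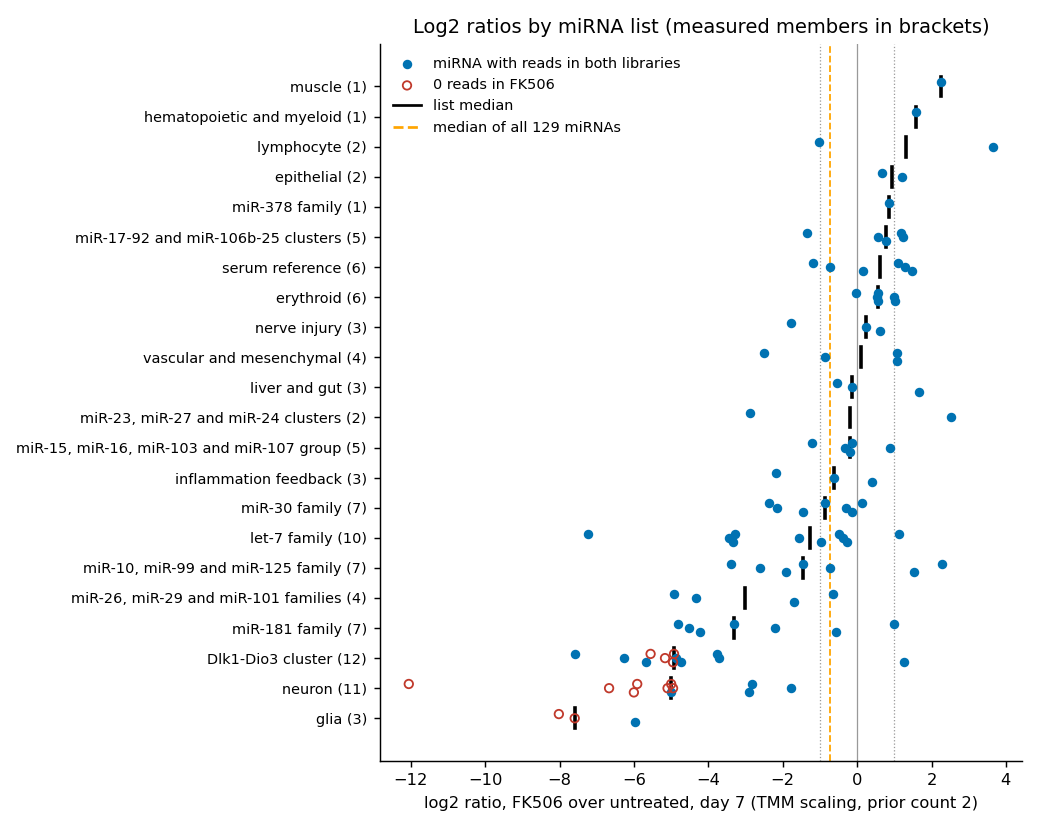
Log2 ratio of FK506 over untreated at day 7 for each measured miRNA by list, with TMM scaling and a prior count of 2; black marks are list medians, the dashed line is the median of all measured miRNAs (-0.74) and dotted lines mark the size of a call. The glia, neuron, Dlk1-Dio3 and miR-181 lists have the lowest medians, while single members of other lists such as let-7e-5p (-7.23) also lie far to the left, and open circles had 0 reads in FK506.

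Setting FK506 day 7 against the other untreated libraries showed which differences rested on the untreated day 7 library, with day and library then differing too. Of the 60 miRNAs lower at day 7, 56 had their highest level of all 6 libraries in untreated day 7 serum, against 48.8% of all measured miRNAs. This count is no independent check, since a call as lower already requires untreated day 7 to lie above FK506 day 7. In 41 of the 60 the FK506 day 7 level lay within the range of the 4 libraries of days 3 and 14, against 69.0% of all. Measured against untreated days 3 and 14 as well, 8 of the 60 had log2 ratios of -1 or less throughout, namely let-7a-5p, let-7f-5p, let-7i-5p, miR-26a-5p, miR-181b-5p, miR-151-5p, miR-30c-2-3p and miR-874-3p. Few reads stand behind the last 2 of these. miR-874-3p had 0 reads in FK506 day 7 and 4 in each of untreated days 3 and 14, so its ratios there depend on the prior count. miR-30c-2-3p had 6 reads in FK506 day 7, and 39 and 50 in untreated days 3 and 14. Of the 25 higher, 5 had log2 ratios of 1 or more throughout: miR-150-5p, miR-1964-3p, let-7d-3p, miR-574-3p and miR-181a-2-3p. The last 3 of these, with miR-874-3p and miR-30c-2-3p, are named for this result after their values were seen. All 13 share the FK506 day 7 library in the 3 ratios.

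The same contrast at the other days used different libraries on both sides. At day 3, 21 of 99 miRNAs were higher (21.2%) and 11 lower (11.1%), and at day 14, 27 of 130 were higher (20.8%) and 20 lower (15.4%). Of the 25 miRNAs higher at day 7, 23 were measured at day 3, of which 9 were higher and 0 lower, and 25 at day 14, of which 9 were higher and 0 lower. Of the 60 lower at day 7, 29 were measured at day 3, of which 6 were lower and 2 higher, and 35 at day 14, of which 7 were lower and 4 higher. By TMM, miR-181a-5p was at -1.17, -4.83 and -0.98 at days 3, 7 and 14, and let-7a-5p at -1.28, -3.43 and -2.50. miR-26a-5p was at -0.94, -4.33 and -0.74, and let-7e-5p at -1.03, -7.23 and 0.46. The day 7 values were thus the widest of the 3 days for each of these 4 miRNAs.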

How the data were processed

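Serum small RNA of 6 libraries was analysed, of which the 2 of day 7 were compared. For each mature entry the authors deposited raw read counts. Per the labels' protocols, gel-selected small RNA was ligated to linkers and sequenced, linkers were trimmed, reads of 15 to 29 nt with few terminal mismatches were kept, and the authors searched miRBase 20.0 for mouse miRNAs using BLAST and Bowtie, a tool the submitters' processing notes also list. Its version and how multiply matching reads were counted are not stated there.

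TMM effective library sizes were computed with edgeR 4.0.16 in R 4.3.3 over 153 entries kept by filterByExpr (treatment as group, minimum count 10). Log2 ratios used a prior count of 2. Printed folds are ratios of scaled counts without it, with exact 95% binomial intervals (SciPy 1.17.1). A fold against 0 reads used a floor of 3 reads. Alternatives were 6 other scalings, among them DESeq2 1.42.0 size factors, prior counts of 0.5 and 5, other read floors, members left out and other untreated libraries. The scaling step was tested on simulated counts. Host genes are from GENCODE M21. The 22 lists, the members and the rules were chosen with earlier results of these data known. Named miRNAs are the 12 highest and 12 lowest, the 10 most abundant, the 3 with most reads per list, and up to 10 per direction that passed under every scaling; the text adds others from complete counts.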

Additional observations from a re-analysis of the deposited data

Results flagged for a closer look

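With TMM scaling, 6 of the miRNAs called at day 7 and measured at another day had log2 ratios of FK506 over untreated past 1 in size on both days but of opposite sign. For miR-204-5p the ratio was -5.98 at day 7 and 1.40 at day 14. For miR-100-5p it was -3.40 at day 7 and 1.59 at day 14. For the smooth muscle miRNA miR-143-3p it was -2.51 at day 7 and 1.90 at day 14, and for miR-19b-3p of the miR-17-92 cluster -1.35 at day 7 and 1.07 at day 14. For miR-92b-3p it was -3.46 at day 7 and 1.20 at day 3, and for miR-128-3p -1.79 at day 7 and 1.21 at day 3. Each day rests on 1 library per group, and the difference between days was not tested.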

How the results depend on the processing

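No paired analysis was possible because the labels give no replicate numbers and each group holds 1 library. The number of miRNAs higher in FK506, 25 with TMM, was 45 as shares of reads outside miR-486-5p and miR-3107-5p and 9 scaled to the library total. Those 45 include the pair itself. The number lower, 60 with TMM, was 22 with a floor of 50 reads in both libraries and 35 with members of the neuronal, glial and Dlk1-Dio3 lists left out. With untreated day 3 in place of untreated day 7, 16 were higher and 16 lower of 99, and with untreated day 14, 14 and 21 of 102. The share of reads outside the pair was 3.98% in FK506 and 11.5% in untreated serum with miR-3107-5p left out of the total, against 2.03% and 6.09%. The other scalings, prior counts and floors kept both numbers within 1.5 times, apart from those named here.

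Of 48 called miRNAs picked by the naming rule, 35 did not turn sign under any of the alternatives that gave them a value, and 27 of the 48 had a value under all 14. As a share outside the pair miR-342-3p was at 0.031. Against untreated day 3 the log2 ratio was -0.85 for miR-10b-5p, -0.14 for miR-215-5p, -1.02 for miR-10a-5p, -0.041 for miR-25-3p, 0.28 for miR-342-3p, 0.22 for miR-143-3p, 2.07 for miR-128-3p, 0.29 for miR-125a-5p, 0.37 for miR-103-3p, 0.62 for miR-222-3p and 0.31 for miR-320-3p. Against untreated day 14 it was -0.0036 for miR-10b-5p, -0.26 for miR-215-5p, -0.028 for miR-191-5p, -0.16 for miR-25-3p, 0.63 for miR-342-3p, 0.74 for miR-143-3p, 1.601 for miR-128-3p, 1.10 for miR-127-3p, 0.97 for miR-125a-5p and 0.51 for miR-222-3p. In these 2 alternatives the untreated library and its day differ from the main comparison, and the cause was not tested. Depth outside the pair limits entries with few reads, such as miR-23a-3p.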
